A study of Caenorhabditis elegans with 3 samples.

Results

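The bus genes of Caenorhabditis elegans, a free-living nematode, shape the glycan-rich coat on the outside of the cuticle. They were named from mutants that do not swell at the tail when exposed to the bacterium Microbacterium nematophilum, which sticks to the normal surface. The set described here has 6 genes, bus-2, bus-4, bus-8, bus-12, bus-17 and bus-18, and its members were chosen by name with their ratios on these arrays already known. A member counted as measured if a probe carried its symbol alone and had a value on all 3 arrays. By that rule 3 of the 6 genes were measured, among 15081 genes with a symbol. The symbols bus-4 and bus-18 matched exactly. The gene bus-8 is listed as bus-8B, sequence name T23F2.1, in the gene table used here, and is called bus-8 below. No probe is listed under bus-2, bus-12 or bus-17 in the annotation used, so their values are not reported here.

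The series holds 1 group, late young adult hermaphrodites, the self-fertile sex, from RNA preparations 1, 2 and 3. Each preparation was hybridised on its own array with 2 channels against a wild-type mixed reference RNA. The array titles end in different date-like strings, in the order of the preparations. A preparation therefore cannot be told apart from its array or from what those strings mark. The labels do not give the strain or age of the adults, the stages in the reference, or whether separate cultures were used. A log2 ratio above 0 is read as likely higher in the adult, since channel 2 is labelled as the adult RNA and the descriptions set it against the reference. The direction itself is not stated in the labels. Read this way, 8 of 8 germline markers and 5 of 5 adult cuticle markers were higher in the adult. Of 9 genes listed as larval cuticle markers, 7 were lower. The other reading would put germline and adult cuticle RNA lower in adults than in the mixture and those 7 higher. The marker lists were chosen with earlier results of these data known, so these counts do not settle the direction.

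As background, glycans of the surface coat are built in epidermal and other surface-forming cells. Sugars are first activated as nucleotide sugars, these are carried into the Golgi by transporters, and glycosyltransferases then add them to proteins or lipids. In the measured set, bus-8 encodes a predicted glycosyltransferase related to the ALG-2 mannosyltransferases, acts in the epidermis and is needed for an intact cuticle. The gene bus-4 encodes a predicted galactosyltransferase. The gene bus-18 encodes a predicted acyltransferase, so the name "glycosylation genes" fits 2 of the 3 measured genes by their predicted enzyme. Of the members with no probe listed, bus-2 encodes a predicted galactosyltransferase, bus-12 a predicted nucleotide sugar transporter and bus-17 a predicted glycosyltransferase.

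All 3 measured genes lay below 0 on every array, as did 31.86% of the genes with a symbol; the members were chosen on these ratios, so nothing is read from this. The lowest was bus-8, with log2 ratios of −0.57, −1.40 and −2.08 in preparations 1, 2 and 3. Its mean was −1.35 ± 0.76 (SD, n = 3), a 2.55-fold lower share in the adult RNA than in the reference. These values span 1.49-fold lower in preparation 1 to 4.24-fold lower in preparation 3, so the size of the bus-8 difference varied widely between preparations while its sign did not.

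The galactosyltransferase gene bus-4 had log2 ratios of −0.48, −0.73 and −1.12, with a mean of −0.78 ± 0.32 (SD, n = 3), 1.71-fold lower. The acyltransferase gene bus-18 had −0.16, −0.20 and −0.52, with a mean of −0.29 ± 0.20 (SD, n = 3), 1.23-fold lower. For all 3 genes preparation 1 lay nearest to 0 and preparation 3 farthest from it. Preparation 1 also correlated less with the others across genes (r = 0.763 and 0.773) than they did with each other (r = 0.900), and its part in the bus values is given by the means without it, −1.74 for bus-8, −0.92 for bus-4 and −0.36 for bus-18. By limma with Benjamini-Hochberg adjustment over 19264 genes or unnamed probes, 2 of the 3 genes, bus-8 and bus-4, passed the adjusted threshold of 0.05 in the lower direction. The same held for 18.8% of everything tested (38.4% passed in either direction), and since the members were chosen on this contrast nothing is read from their count. Without preparation 3, lower calls over the whole table went from 3624 to 2676. There bus-4 no longer passed, at a mean log2 ratio of −0.60, and bus-8 did. This too describes chosen genes, and nothing is read from it.

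The order of the ratios, from lowest to highest, was bus-8, bus-4, bus-18 on each array. On the log2 scale bus-8 lay below bus-4 by 0.09, 0.68 and 0.96, a mean difference of −0.58 ± 0.45 (SD, n = 3). In preparation 1 the 2 genes were therefore nearly level, and the gap varied widely between preparations. The gene bus-4 lay below bus-18 by 0.32, 0.52 and 0.60, a mean difference of −0.48 ± 0.15 (SD, n = 3). Neither gap was tested. These are differences between ratios to the reference and say nothing of which gene had more RNA.

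**Figure D1:**
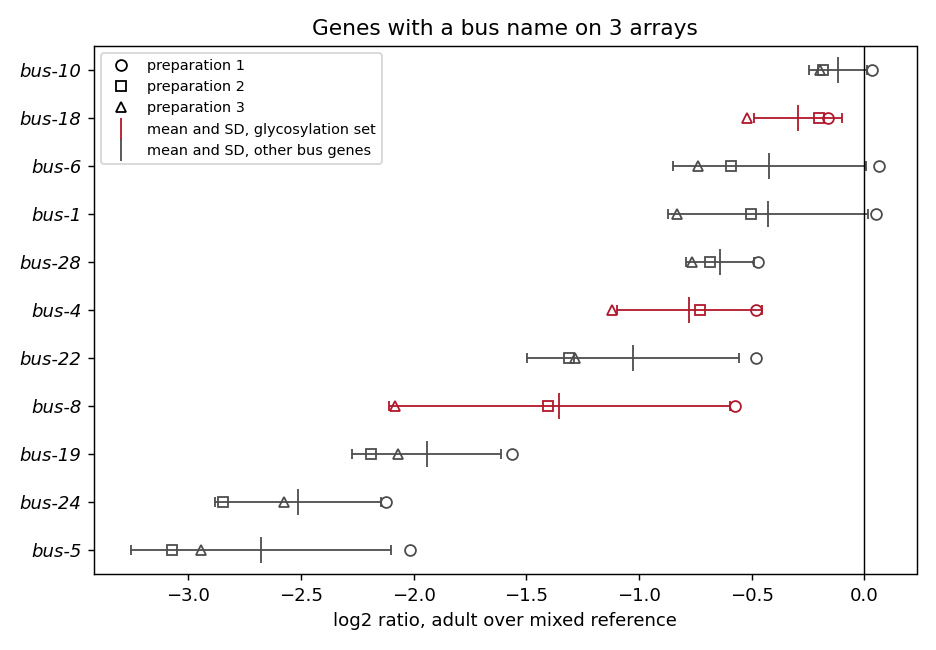
Log2 ratio of adult over mixed reference RNA (horizontal axis) for the 11 measured genes with a bus name (rows). Open symbols are the 3 preparations, vertical ticks the means and bars the SD, red for bus-8, bus-4 and bus-18; every mean lies below 0, from −0.12 for bus-10 to −2.68 for bus-5, and preparation 1 is the rightmost symbol in each row.

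Set against all genes with a symbol, bus-8 lay low, bus-4 moderately low and bus-18 well within the bulk. By mean ratio, 5.73% of genes lay below bus-8, 14% below bus-4 and 29.81% below bus-18, and the median over all genes was 0.02. The rank of bus-8 depended on the array, with 20.12% of genes below it in preparation 1, 6.56% in preparation 2 and 2.70% in preparation 3. For bus-4 the shares were 23.25%, 16.68% and 10.17%. For bus-18 they were 37.78%, 36.22% and 22.82%, so it lay nearer to the middle than bus-8 and bus-4 on every array.

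**Figure D2:**
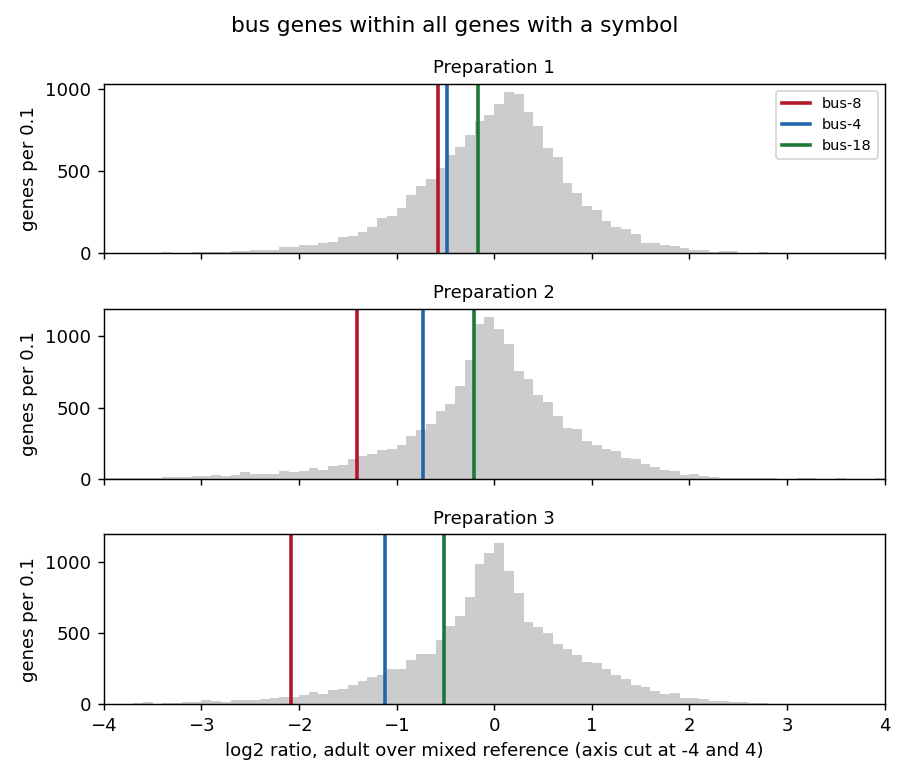
Histograms of log2 ratios (horizontal axis, limited to −4 to 4) over the 15081 genes with a symbol, in genes per bin of 0.1, for each preparation. Coloured lines mark bus-8, bus-4 and bus-18, and bus-8 moves from −0.57 in preparation 1 to the lower tail at −2.08 in preparation 3.

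The spread between preparations also differed within the set. The SD of bus-8 over the arrays, 0.76 on the log2 scale, was larger than that of 96.98% of genes with a symbol, whose median SD was 0.27. For bus-4 the share was 61.76% and for bus-18 it was 32.13%. The array order seen in these genes, preparation 1 highest and preparation 3 lowest, was found in 21.2% of all genes with a symbol. Among the 3633 genes whose mean lay within the range of the set, it was found in 28.08%. This order was thus not rare for a single gene with such a ratio. Of 8 other measured genes with a bus name, 4 had it. In all 8 of them preparation 3 lay below preparation 1. That held for 53.87% of all genes with a symbol and 61.66% of those with a mean in the range of the set. How often several genes share the order was not tested.

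The other genes with a bus name, which are not in the set, gave 8 measured genes. Of these 5 were lower by limma and 0 higher, at a background of 18.8% lower and 19.6% higher over everything tested; the other 3 did not pass. The gene bus-5, which encodes a dTDP-glucose dehydratase of nucleotide sugar synthesis, had log2 ratios of −2.02, −3.07 and −2.94. Its mean was −2.68 ± 0.57 (SD, n = 3), 6.40-fold lower (limma adjusted p = 0.000114). The gene bus-24, named after its value was seen, had −2.12, −2.85 and −2.57, a mean of −2.51 ± 0.37 (SD, n = 3; limma adjusted p = 7.78e-05). Both lay below bus-8 in every preparation.

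The gene bus-19 had a mean log2 ratio of −1.94 ± 0.33 (SD, n = 3; limma adjusted p = 0.00016). For bus-22 the mean was −1.03 ± 0.47 and for bus-28, named after its value was seen, −0.64 ± 0.15 (SD, n = 3 each; limma adjusted p = 0.00471 and 0.0129). The call of bus-28 was lost without preparation 2 and without preparation 3, at means of −0.62 and −0.58. The acyltransferase gene bus-1, known for its expression in rectal cells, had 0.05, −0.50 and −0.83, and bus-6 had 0.07, −0.59 and −0.74. Neither passed with all arrays, and both passed without preparation 1, at mean log2 ratios of −0.66 each. The gene bus-10 lay at −0.12 ± 0.13. The median of these 8 means was −0.83 ± 0.32 (SD over the array medians). For the measured set it was −0.78 ± 0.32, but its members were chosen with these ratios known, so nothing is read from the likeness. All 8 other bus genes had a mean below 0. Over all genes with a symbol that share was 48.27%.

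A fixed list of surface mutants, with bus, srf and bah genes outside the set, had 10 measured members of 20 listed. It does not hold bus-24 or bus-28, which were both lower as given above. By limma 4 were lower and 0 higher, and the list median was −0.46 ± 0.36 (SD over the array medians). Besides bus-5, bus-19 and bus-22, the fourth was srf-5, with −0.95 ± 0.87 (SD, n = 3; limma adjusted p = 0.0333). It had 0.04 in preparation 1 and −1.60 in preparation 3, and did not pass without preparation 3, at a mean of −0.62. The nucleotide sugar transporter gene srf-3, whose mutants also lose surface antigens, lay at −0.21 ± 0.04, and bah-1, named for its biofilm phenotype, at 0.33 ± 0.17; neither passed.

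Genes that make nucleotide sugars, the donors of glycosyltransferases in general, went both ways. Which of these donors bus-4 and bus-8 use was not tested. Of 13 measured genes, 5 were higher and 6 lower by limma; the list median was 0.16 ± 0.18 (SD over the array medians). The lowest were a pair of dTDP-sugar genes, rml-3, with log2 ratios of −2.62, −2.74 and −3.05 (mean −2.80 ± 0.22, SD, n = 3; limma adjusted p = 5.41e-05), and bus-5, which belongs to this list as well. The GDP-mannose dehydratase gene bre-1, of GDP-fucose synthesis, lay at −1.81 ± 0.30 (SD, n = 3; limma adjusted p = 0.000186), and its paralogue gmd-2 and the epimerase-reductase gene ger-1, both named after their values were seen, at −0.95 ± 0.06 and −0.59 ± 0.08.

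Among the higher ones, the glutamine-fructose 6-phosphate aminotransferase genes gfat-2 and gfat-1, which act in UDP-N-acetylglucosamine synthesis, had means of 1.69 ± 0.25 and 1.61 ± 0.16 (SD, n = 3 each; limma adjusted p = 0.000215 and 0.000206). The glucosamine phosphate acetyltransferase gene gna-2, which serves the eggshell, lay at 0.76 ± 0.28 and was named after its value was seen, while its paralogue gna-1 lay at 0.16 ± 0.31 and did not pass. The rml genes did not move as a block. The mean log2 ratio of rml-1 was 1.00 ± 0.14, higher, and that of rml-4 was −0.71 ± 0.19, lower, both named after their values were seen. Without preparation 3 the list had 3 higher and 4 lower genes, and gna-2, ger-1 and rml-4 no longer passed; ger-1 was also lost without preparation 2.

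**Figure D3:**
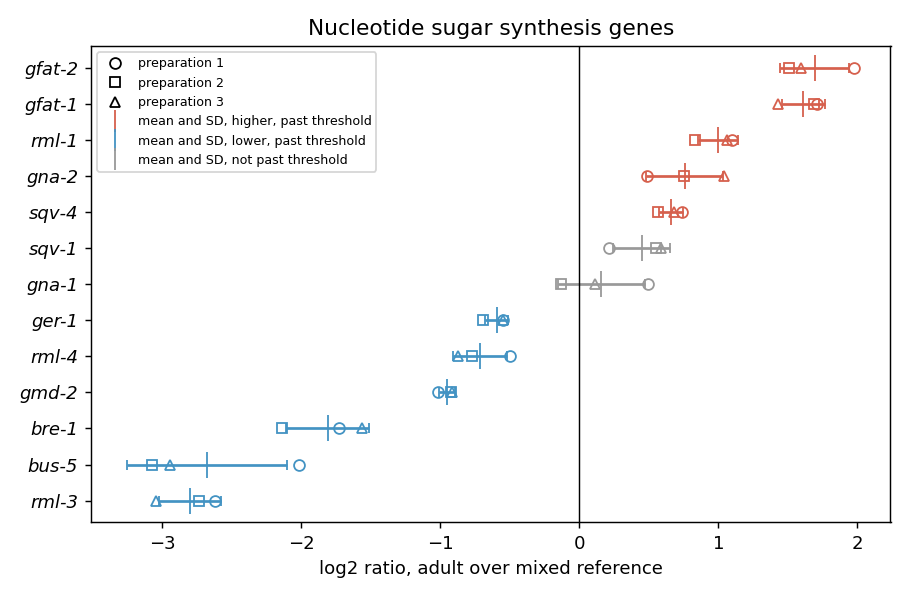
Log2 ratio of adult over mixed reference RNA (horizontal axis) for the 13 measured nucleotide sugar synthesis genes (rows). Open symbols are preparations, ticks and bars the mean and SD, and colours the limma call; gfat-2 lies highest at 1.69, and bus-5 and rml-3 lie lowest at −2.68 and −2.80.

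Transporters of nucleotide sugars, the class to which bus-12 belongs, were mostly not called. Of 14 measured genes, 1 was higher, nstp-2 at 0.97 ± 0.31, and 1 lower, nstp-3 at −0.75 ± 0.24 (SD, n = 3 each; limma adjusted p = 0.00306 and 0.00833). The list median was −0.09 ± 0.13 (SD over the array medians). Leaving out preparation 1 gave 2 higher and 3 lower transporters, and leaving out preparation 3 gave 1 and 0.

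In assembly and trimming of N-glycans, the pathway of the ALG-2 enzymes to which bus-8 is related, 12 of 24 measured genes were higher by limma and 0 lower, with a median of 0.54 ± 0.14 (SD over the array medians). The oligosaccharyltransferase gene ostb-1 led with 1.48, 1.11 and 1.36 (mean 1.32 ± 0.19, SD, n = 3; limma adjusted p = 0.00051), followed by the glucosyltransferase gene algn-6 at 1.05 ± 0.16. The lowest of those that passed were gly-13 and algn-9, at 0.63 ± 0.20 and 0.61 ± 0.20. The gene algn-2, which shares its name with the enzyme family of bus-8, lay at 0.02 ± 0.41 and did not pass. It had −0.39, 0.01 and 0.43, above bus-8 on each array. Without preparation 3 the list had 7 higher genes and 0 lower, and gly-13 and algn-9 did not pass; algn-9 was also lost without preparation 2.

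Polypeptide N-acetylgalactosaminyltransferases start mucin-type O-glycans, to which galactosyltransferases then add. Of 5 measured genes 2 were higher and 1 lower by limma. The gene gly-10 lay at 1.38 ± 0.16 and gly-3 at 0.70 ± 0.40, and gly-6 had −1.16, −1.79 and −2.16 (mean −1.70 ± 0.51, SD, n = 3; limma adjusted p = 0.000532). Of 5 fucosyltransferase genes, fut-4 was higher at 0.75 ± 0.08 and fut-2 lower at −1.30 ± 0.36; without preparation 1 there were 2 lower.

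Of 6 glycosphingolipid genes, 2 were higher and 2 lower by limma. The ceramide glucosyltransferase genes split, with cgt-3 at 0.98 ± 0.15 and cgt-1 at −1.55 ± 0.62 (SD, n = 3 each; limma adjusted p = 0.00177 and 0.0013). The other 2 were bre-3, higher at 0.53 ± 0.11, and bre-1, given above. Without preparation 2, or without preparation 3, 1 gene was higher and bre-3 did not pass.

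Of 13 glycosaminoglycan synthesis genes, 6 were higher and 1 lower by limma, with a median of 0.45 ± 0.11 (SD over the array medians). The chondroitin synthesis genes sqv-5 and mig-22 led at 1.27 ± 0.21 and 1.23 ± 0.05 (SD, n = 3 each; limma adjusted p = 0.000618 and 0.000542). The heparan sulfate sulfotransferase genes hst-1 and hst-3.1 lay at 0.63 ± 0.18, higher, and −0.89 ± 0.46, lower. Without preparation 3 hst-3.1 did not pass, and 4 genes were higher and 0 lower; hst-1 was lost without preparation 2.

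For bus-18, the nearest comparison by predicted enzyme class was the acl acyltransferase list. Of 11 measured genes 4 were higher and 2 lower by limma, with a median of 0.22 ± 0.11 (SD over the array medians). The genes acl-8 and acl-6 lay at 1.09 ± 0.12 and 0.94 ± 0.18, and acl-12 and acl-14 at −1.39 ± 0.60 and −0.45 ± 0.07. With its mean of −0.29, bus-18 lay above both of the lower acl genes. Without preparation 3 the list had 2 higher and 1 lower, and without preparation 2 it had 4 and 1; acl-14 was lost both times.

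Over the 9 surface, glycosylation and acyltransferase lists together, 95 different genes outside the set were measured. The genes bus-24 and bus-28 are in none of these lists. By limma 32 of the 95 were higher than the reference and 16 lower, and the median over the 95 was 0.24. Over everything tested, 3769 of 19264 were higher (19.6%) and 3624 lower (18.8%). Glycosylation genes outside the bus set thus lay on both sides of 0, with more of the 95 called higher than lower. Neither the difference between the bus genes and these lists nor that between lists was tested.

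**Figure D4:**
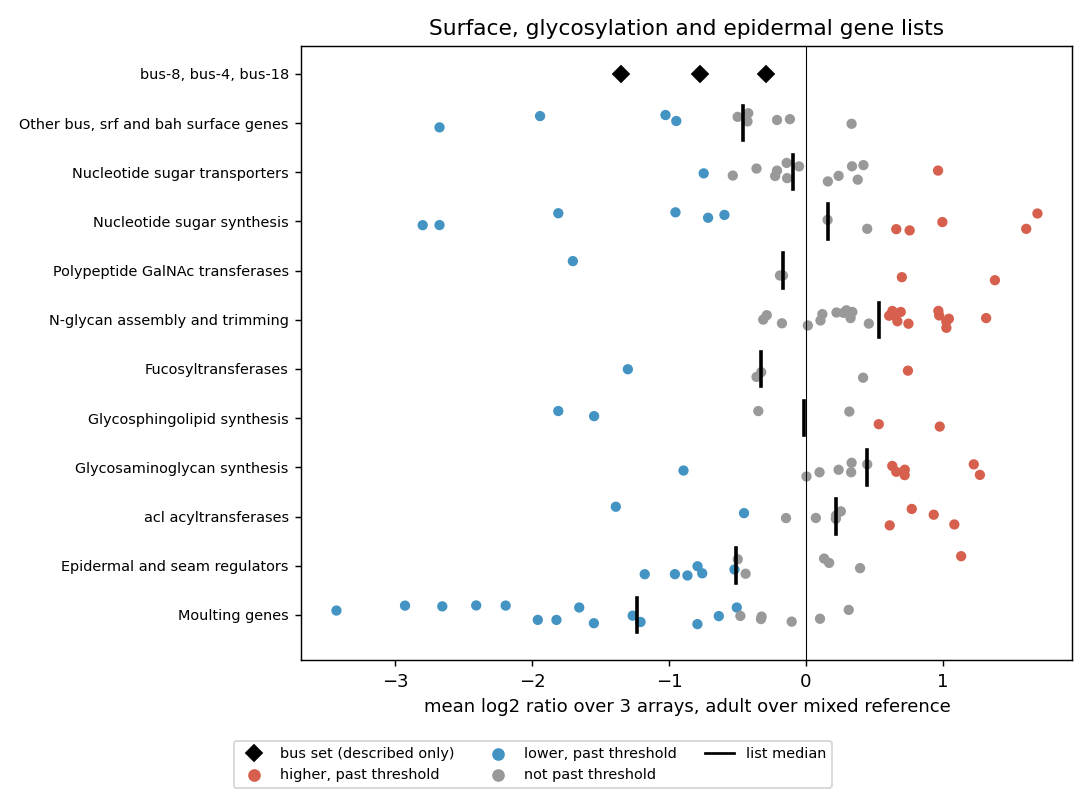
Mean log2 ratio over 3 arrays (horizontal axis) of each measured gene in the surface, glycosylation and epidermal lists (rows), coloured by limma call, with vertical bars at the list medians. Diamonds in the top row are bus-8, bus-4 and bus-18, all below 0; the N-glycan median lies at 0.54 and the moulting median at −1.24.

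Genes of the epidermis, where bus-8 acts, held members in both directions. Of 12 measured regulators of epidermal and seam cells, 6 were lower and 1 higher by limma, with a median of −0.51 ± 0.13 (SD over the array medians). The lowest were the zinc finger gene bed-3 at −1.18 ± 0.30 and the nuclear receptor gene nhr-25 at −0.96 ± 0.20. The seam homeobox gene ceh-16 lay at −0.52 ± 0.10 and was lost without preparation 2 and without preparation 3. The nuclear receptor gene nhr-23, which drives moulting, was higher at 1.14 ± 0.16 (SD, n = 3; limma adjusted p = 0.000903).

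Of 20 moulting genes, 14 were lower and 0 higher by limma, with a median of −1.24 ± 0.30 (SD over the array medians). The lowest were the hedgehog-related gene wrt-10 at −3.43 ± 0.91 and the patched-related gene ptr-4 at −2.93 ± 0.54. The least negative of those that passed were the kinase gene nekl-3 and the astacin protease gene nas-37, at −0.64 ± 0.15 and −0.50 ± 0.08, of which nas-37 was lost without preparation 2 or 3 and nekl-3 without preparation 2. The moulting list had array medians of −0.94, −1.08 and −1.51, and 10 of its 20 genes had preparation 1 highest and preparation 3 lowest.

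Markers of other tissues also differed between adult and reference RNA. Of 8 germline markers 8 were higher (median 2.39), with array medians of 2.29, 2.33 and 2.42. Of 5 markers of adult cuticle 5 were higher, with array medians of 1.00, 1.46 and 2.31. Of 9 genes listed as markers of larval cuticle 7 were lower, with array medians of −2.04, −2.60 and −2.44. In that list bli-1 and bli-2 did not pass, at means of 0.38 and 0.17. Medians for body wall muscle, intestine and neuron markers were 0.30, 0.49 and −1.86, with 0 of 4, 3 of 6 and 0 of 5 higher and 1, 0 and 3 lower, and 5 of 7 sperm markers were higher. In whole animals, fewer cells of a type and less RNA per cell cannot be told apart, and how far the germline or moulting values enter the bus values was not tested.

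The 3 measured genes lie on different chromosomes. In the RefSeq gene table of assembly WBcel235, bus-8 is on chromosome X, bus-4 on IV and bus-18 on V. Of 2265 measured genes on X, whose median was −0.27, 6.27% lay below bus-8. On IV 13.63% of genes lay below bus-4 and on V 32.02% below bus-18, shares close to those over the whole genome.

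The next protein-coding gene to the right of bus-8, T23F2.2, overlaps it in the table. It had log2 ratios of −1.45, −0.85 and −1.43, with a mean of −1.24 ± 0.34 (SD, n = 3; limma adjusted p = 0.00109). Its array order differed from that of bus-8, with preparation 1 lowest. Strand and probe sequence were not used, so whether the bus-8 probe also reads this gene, or bus-8A, which overlaps on the left and has no value here, was not tested. The neighbours of bus-4, kin-36 and spe-51, lay at 0.20 and −0.27, and the measured neighbour of bus-18, F55A11.6, at 0.51; none of these 3 passed.

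The genes with the most similar values were taken by the root mean square difference over the 3 arrays. For bus-8 these were C03A3.1, fbxa-162 and the patched-related gene ptr-6, at differences of 0.08, 0.12 and 0.13 on the log2 scale. The gene ptr-6 had −0.69, −1.31 and −1.91. For bus-4 they were C07A4.2, the dopamine receptor gene dop-3 and the kinase gene kgb-2, at 0.04, 0.04 and 0.05. For bus-18 they were the TRP channel gene gtl-2, C53D6.5 and the moulting regulator gene myrf-1, at 0.01, 0.01 and 0.04. Within 0.25 on this scale lay 34 genes for bus-8, 499 for bus-4 and 1296 for bus-18. These counts depend on how many genes lie near each set of ratios. How particular the likeness is was not tested.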

How the data were processed

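The authors deposited log2 ratios for 20000 probes, 1 value for each of 3 arrays. Per the labels, each array has 2 channels; how they were background-corrected and normalized, and with which dyes, are details not given in the sources used here. Base 2 was read from the deposited values, since turning them back into ratios gave whole steps of 0.001 for 99.98% (tolerance 0.01 of a step). Array medians of the log2 ratios were 0.05, 0.01 and 0.02, and across genes preparation 1 correlated with preparations 2 and 3 at r = 0.763 and 0.773, and preparations 2 and 3 with each other at 0.900 (genes are not independent replicates). No intensities were used, so faint spots cannot be told from bright ones, and the number of arrays limits the precision.

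Probes were named from the platform annotation, updated by gene identifier to RefSeq symbols (WBcel235, names and neighbours only). Unique symbols were given to 15569 probes by identifier, 7 by accession and 79 by symbol alone; 198 had several and 4147 were not listed. Probes of a symbol were averaged. This left 19264 genes or unnamed probes with a value on all arrays, 15081 with a symbol.

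The test was limma 3.58.1 under R 4.3.3 on each gene's mean ratio (intercept, eBayes, two-sided, null value 0), Benjamini-Hochberg adjusted over all 19264, at 0.05, after a test on simulated data. The p-values measure the spread between preparations, which may be technical; the reference's own spread does not enter, and a channel effect cannot be told apart from a difference. The members and lists were chosen with earlier results of these data known; members entered the fit with all genes, but their calls are a description and support nothing. In each list, all passing genes were named if 4 or fewer, otherwise the 2 highest and 2 lowest; for each member, the 3 nearest genes and both neighbours. Alternatives were median centring, equal spread, quantile normalization, the probe median, values on 2 arrays, array weights, no moderation and leaving out each array.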

Additional observations from a re-analysis of the deposited data

How the results depend on the processing

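The means of bus-8, bus-4 and bus-18 stayed below 0 and within 1 SD of the reported values under median centring, equal spread, quantile normalization, the probe median and array weights. With 1 preparation left out they ran from −1.74 to −0.99, −0.92 to −0.60 and −0.36 to −0.18. Over the whole table the calls ran from 2676 to 4274 higher and 2676 to 4184 lower with 1 preparation left out, against 3769 and 3624. A one-sample test without moderation called 0 genes, so 0 in every list (smallest adjusted p = 0.0682; at an unadjusted 0.05 it called 6188 genes and limma 8985). Median centring gave 2 lower transporters, and array weights 2 higher and 3 lower transporters and 2 lower fucosyltransferases. With 1 preparation left out, higher and lower counts were 0 and 3 to 6 for surface genes, 1 to 2 and 0 to 3 for transporters, 3 to 6 and 4 to 6 for nucleotide sugar synthesis, and 2 and 1 for polypeptide transferases. They were 7 to 14 and 0 for N-glycans, 1 and 1 to 2 for fucosyltransferases, 1 to 2 and 2 for glycosphingolipids, 4 to 8 and 0 to 1 for glycosaminoglycans, 2 to 4 and 1 to 2 for acl genes, 1 and 5 to 8 for regulators, and 0 and 12 to 15 for moulting genes. Of 48 single genes followed, 15 lost their call without some preparation and 0 changed sign. No paired analysis was possible because the series has 1 group. Background correction, dim-spot filters and slide blocks could not be varied without intensities.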
